A study of Homo sapiens with 32 samples.

Results

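The 77 cytosolic ribosomal protein genes described here are the rows of a gene expression table, made from 2 human lines of diffuse large B-cell lymphoma, whose symbol names a large (RPL) or small (RPS) subunit protein and whose mean log2 value over 32 libraries is 8 or more. They were 77 of 25066 features, 46 of the large and 31 of the small subunit, and every symbol of this form passed the threshold: the lowest mean was 13.20 (RPS26), and no symbol fell short of it. TMD8 belongs to the activated B-cell-like class of this lymphoma and DOHH2 to the germinal centre class, and both carried an engineered Cas9. They received 500 nM CSKi, which inhibits the kinase CSK, a brake on Src family kinases such as LYN, or its vehicle DMSO for 1, 3, 6 or 24 h. Each of the 16 groups of line, treatment and time had 2 libraries, all grown in advanced RPMI with 5% FBS, and each line was studied without a second line of its type. The comparisons ask whether CSK inhibition moved the ribosomal protein transcripts in each line and at each time, and how the lines differ.

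The cytosolic ribosome is built from ribosomal RNA and the proteins of these genes, which are needed in fixed proportions and are made in step. In vertebrates most of their mRNAs are TOP mRNAs: they begin with a C followed by an unbroken run of pyrimidines, the terminal oligopyrimidine tract. Through this tract LARP1 and the kinase complex mTORC1 set how well these mRNAs are translated and how long they last. In B cell tumours, MYC and the B cell receptor and growth factor pathways are known to act on ribosome production.

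The tract was read from the sequence around the annotated transcript start for the 62 members with a RefSeq promoter entry (GRCh38.p14), searching on the coding strand for a C followed by at least 4 bases that are each C or T, with the first base from 5 bases before to 12 bases into the transcript. Such a run was there in 55 of 62 members (88.7%), against 28.1% of 35116 promoters, and the length of the run ranged from 5 to 22 bases with a median of 10.0. The windows below hold 15 bases before and 15 bases from the annotated start of the members that the results turn on, with the run in capitals; the run of RPL39 goes on past its window. RPS27, RPL13A and RPL28 were among the members with the largest rise in TMD8 at 24 h, RPS6 and RPL21 led in DOHH2 at 3 h, RPL39 led in DOHH2 at 6 h, RPL14 and RPL24 were not called in TMD8 at 24 h, and RPS26 fell there.
RPS27: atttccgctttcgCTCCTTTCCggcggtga
RPL13A: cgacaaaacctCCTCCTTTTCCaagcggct
RPL28: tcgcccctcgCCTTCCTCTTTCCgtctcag
RPS6: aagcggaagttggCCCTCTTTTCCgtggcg
RPL21: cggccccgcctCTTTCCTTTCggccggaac
RPL39: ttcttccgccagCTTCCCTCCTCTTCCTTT
RPL14: gggcgggtcttCTTCCTTCTCgcctaacgc
RPL24: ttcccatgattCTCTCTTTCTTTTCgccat
RPS26: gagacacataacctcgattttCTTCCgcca
RPL15: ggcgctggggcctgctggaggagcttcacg
The windows lie at chr1:153990747-153990776 (RPS27), chr19:49487593-49487622 (RPL13A), chr19:55385917-55385946 (RPL28), chr13:27251543-27251572 (RPL21), chr3:40457324-40457353 (RPL14), chr12:56041903-56041932 (RPS26) and chr3:23916530-23916559 (RPL15) on the plus strand. Those of RPS6 (chr9:19380222-19380251), RPL39 (chrX:119791616-119791645) and RPL24 (chr3:101686704-101686733) lie on the minus strand and are printed 5′ to 3′ as transcribed. RPL15 stands for the 7 matched members with no run at the annotated start. The run of RPS26 has 5 bases and begins at base 7 of the annotated transcript, while RPL14 and RPL24 hold runs of 10 and 14 bases, against 9 bases in RPS27 and 11 bases in RPL13A. Over 300 bases and on both strands, the ETS motif CCGGAAG was found in 21 of 62 members (33.9%, against 10.3% of all promoters) and CTCTTTCC in 9 (14.5%, against 3.04%), the second of which can lie inside the pyrimidine run. The YY1 motif core AAGATGG was found in 8 members (12.9%, against 5.84%), CCGCCC in 34 (54.8%, against 45.0%), TATAA in 11 (17.7%, against 20.4%) and the E-box CACGTG in 3 (4.84%, against 7.26%).

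The libraries held 12273442 to 24907030 mapped reads, of which the members took 12.1 to 14.4%. In a single library a member had from 2158 reads (RPS26) to 236532 reads (RPL13A). The values are log2 of reads scaled by a factor of each library, they are not divided by transcript length, and no order between genes is drawn from them. On this scale the means over 32 libraries ran up to 16.58 (RPL4), 16.65 (RPS18), 16.84 (RPS6) and 17.48 (RPL13A), and down to 13.92 (RPL38), 13.87 (RPS21), 13.69 (RPL39) and 13.20 (RPS26). All 7 B cell markers had over 10 reads in both lines, the T and NK cell list summed to at most 4.91 RPM (reads of the list over mapped reads), the myeloid list to at most 10.4 RPM, and the fibroblast and epithelium list to 124 to 185 RPM in TMD8 and at most 0.559 RPM in DOHH2. In TMD8 the gene behind most of that sum was CDH1 (2149 reads on average) and KRT18 had no reads. The DOHH2 libraries of 24 h stood apart from their labels. There the library labelled CSKi replicate 1 was below CSKi replicate 2 by a median of 0.21 over the members, with 2 of 77 members higher, and CSKi replicate 2 was closer to DMSO replicate 1 (SD of the member differences 0.0461) than to its own duplicate (0.106). DOHH2 values of 24 h are therefore given per library, and other DOHH2 results come from a fit without these 4 libraries. The full fit is given beside the member counts of 3 h, 6 h and DMSO of 6 h against 1 h. It is not given for genes other than the members.

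TMD8 at 24 h showed the broadest movement of these genes. Of the 77 members, 73 were higher with CSKi and 1, RPS26, was lower (limma, Benjamini-Hochberg adjusted p under 0.05 over 12000 features), where 27.9% of all features were called higher and 26.2% lower. The members' median log2 difference was 0.22, a 1.16-fold rise, against 0.02 over all features. With libraries scaled to total mapped reads, 72 members were higher and 1 lower, where 24.3% and 30.2% of all features were called, and the members' median was 0.18 against -0.03 over all features. Both CSKi libraries were above both DMSO libraries in 75 members (38.6% of all features) and below them in 1 (35% of all features). In bulk RNA such values are shares of a library, so a rise of the members and a fall of other transcripts cannot be told apart. Nor can a change in the cells present and a change in RNA per cell.

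Summed over the members, ribosomal protein transcripts took 14.4 and 13.8% of mapped reads in the TMD8 CSKi libraries of 24 h, against 12.4 and 12.1% in the DMSO libraries. The CSKi libraries were the highest and the DMSO libraries the lowest of the line at any time. At 1, 3 and 6 h the TMD8 DMSO means were 12.9, 12.7 and 12.9%, so the gap at 24 h lies on both sides of the earlier vehicle level. In the same libraries of 24 h the B cell markers summed to 0.482 and 0.500% with CSKi, against 0.367 and 0.372% with DMSO, and the fibroblast and epithelium list to 0.0185 and 0.0175% with CSKi, against 0.0134 and 0.0124% with DMSO. Their part in the result was not tested.

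**Figure D1:**
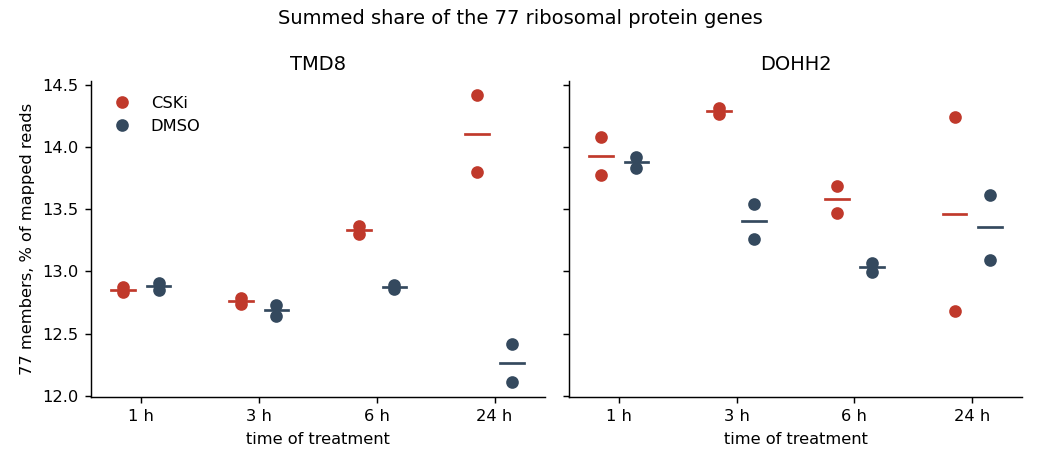
Share of mapped reads (%) that fell on the 77 members in each library, by line and time, with CSKi left of DMSO and a bar at the mean of 2 libraries. In TMD8 the CSKi libraries stand at 14.4 and 13.8% and the DMSO libraries at 12.4 and 12.1% at 24 h, and in DOHH2 the CSKi libraries of 24 h lie on either side of the DMSO libraries.

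Large subunit members rose as a group, with 43 of 46 called higher, none lower and a median of 0.21. RPL13A, a member that also has a part in a translational control complex of interferon-treated cells, had values of 18.58 and 18.43 with CSKi, against 18.16 and 18.13 with DMSO, a log2 difference of 0.36 ± 0.03 (SE of the fit, n = 2 each; limma adjusted p = 2.1e-09). RPL28, a protein on the outer face of the large subunit, had 16.94 and 16.72 with CSKi, against 16.50 and 16.48 with DMSO (0.34 ± 0.04, adjusted p = 5.0e-07). In both genes the groups were apart, and the CSKi duplicates were further from each other than the DMSO duplicates. RPL18, RPL13, RPL37, RPL11 and RPL15 followed with log2 differences of 0.33, 0.33, 0.32, 0.32 and 0.31.

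RPL5 and RPL11, which bind 5S ribosomal RNA and, when free, the p53 regulator MDM2, differed by 0.18 ± 0.03 and 0.32 ± 0.04 (adjusted p = 3.2e-05 and 6.1e-08). RPL5 had values of 15.66 and 15.66 with CSKi, against 15.52 and 15.44 with DMSO, and RPL11 had 14.76 and 14.66 with CSKi, against 14.42 and 14.37 with DMSO. The 3 proteins of the P stalk, which recruits translation factors, were all higher, with RPLP0 at 16.78 and 16.68 with CSKi, against 16.50 and 16.45 with DMSO (0.25 ± 0.03, adjusted p = 1.9e-07). RPL22, which also binds small viral RNAs of Epstein-Barr virus, rose by 0.15 ± 0.04 (adjusted p = 9.4e-04).

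The 3 large subunit members that were not called had log2 differences below those of the 43 called members. RPL14 had 14.87 and 14.82 with CSKi, against 14.88 and 14.79 with DMSO, and its groups overlapped (0.02 ± 0.03, adjusted p = 0.71, and -0.03 with total mapped reads scaling). RPL7 and RPL24 differed by 0.04 ± 0.03 (adjusted p = 0.26) and 0.06 ± 0.03 (adjusted p = 0.13). RPL35 was the called member nearest to these, with 0.10 ± 0.04 (adjusted p = 0.017), and it was not called with total mapped reads scaling (adjusted p = 0.10).

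Small subunit members had 30 of 31 called higher, with a median of 0.23. RPS27, a zinc finger protein of the small subunit, had 15.88 and 15.78 with CSKi, against 15.46 and 15.36 with DMSO (0.43 ± 0.04, adjusted p = 2.6e-10). RPS6, the substrate of the S6 kinases downstream of mTORC1, had 17.10 and 16.97 with CSKi, against 16.92 and 16.84 with DMSO, a small difference with groups that did not overlap (0.15 ± 0.04, adjusted p = 0.0024).

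RPS26 alone of the 77 was called lower in TMD8 at 24 h. This small subunit protein lies at the exit of the mRNA channel and touches the bases before the start codon. It had 12.21 and 12.07 with CSKi, against 12.59 and 12.54 with DMSO, a fall of 25.8% (-0.43 ± 0.05, adjusted p = 1.7e-08), and on total mapped reads the difference was -0.47 (adjusted p = 3.3e-09). Leaving out each of the 4 libraries in turn gave -0.50 to -0.36. Wherever a library was left out, its group had 1 library, which was assumed to vary like the other groups of the fit. At 1 h RPS26 had 12.40 and 12.42 with CSKi, against 12.42 and 12.38 with DMSO, and the groups overlapped. At 3 h it had 12.35 and 12.40 with CSKi, against 12.48 and 12.44 with DMSO, and at 6 h 12.46 and 12.39 with CSKi, against 12.55 and 12.46 with DMSO, both without passing the test (adjusted p = 0.35 and 0.26).

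**Figure D2:**
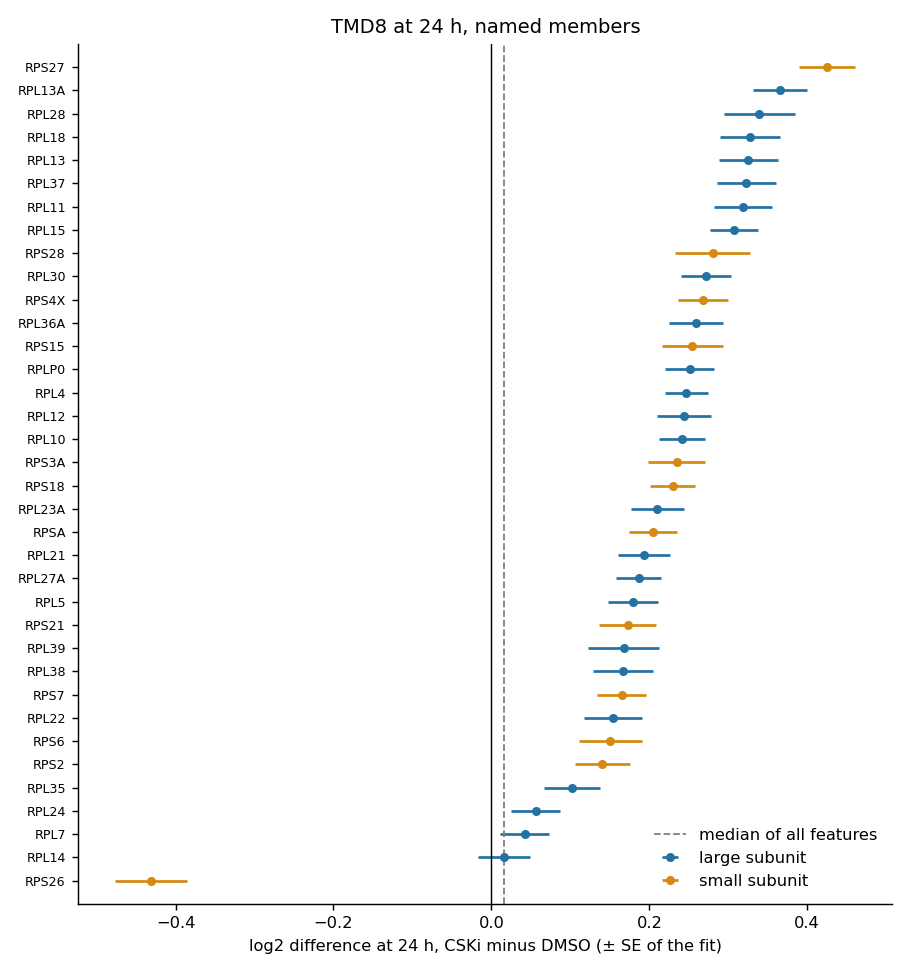
The log2 difference of 36 members named in the text in TMD8 at 24 h (CSKi minus DMSO, x axis) with the SE of the fit as a bar, ordered by size and coloured by subunit, and the median of all features as a dashed line. RPS27 stands at 0.43 and RPL13A at 0.36, RPL14 lies at 0.02 and RPS26 alone lies below 0 at -0.43.

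Earlier in TMD8 few members were called. At 1 h and at 3 h none was called, where 0.05% and 4.73% of all features were called in either direction, and at an unadjusted p under 0.05 the counts were 0 at 1 h and 1 at 3 h. Their medians were 0.00 at both times. At 6 h, 3 members were called higher and none lower (5.67% of all features were called higher), or 4 with total mapped reads scaling (5.62% of all features). These 3 were RPL13A (18.22 and 18.28 with CSKi, against 18.13 and 18.13 with DMSO, 0.12 ± 0.03), RPL13 (15.59 and 15.60 with CSKi, against 15.47 and 15.47 with DMSO, 0.12 ± 0.04) and RPL11 (14.63 and 14.55 with CSKi, against 14.49 and 14.47 with DMSO, 0.11 ± 0.04), with adjusted p of 0.022, 0.036 and 0.040. Both CSKi libraries were above both DMSO libraries in 52 members, where 31.8% of all features were, and the members' median was 0.045 against 0.015 over all features. The difference was above 0 in 74 of the 77 members, as in 54.85% of all features. At an unadjusted p under 0.05, 13 members were higher and 0 lower. The 3 calls were lost without either DMSO library of 6 h and fell to 1 without either CSKi library of 6 h.

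The response of TMD8 grew between 6 and 24 h. The difference of the 2 responses (24 h minus 6 h) was called higher in 59 members and lower in 1, RPS26, where 15.4% and 14.1% of all features were called, and in 46 members higher and 1 lower with total mapped reads scaling, where 12.9% and 17.6% were. RPS27 differed by 0.36 ± 0.05 (adjusted p = 4.8e-06) and stayed called under all 12 alternatives tried for it, and RPL37 differed by 0.30 ± 0.05 (adjusted p = 1.2e-04). RPS26 had -0.35 ± 0.06 (adjusted p = 1.9e-04).

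**Figure D3:**
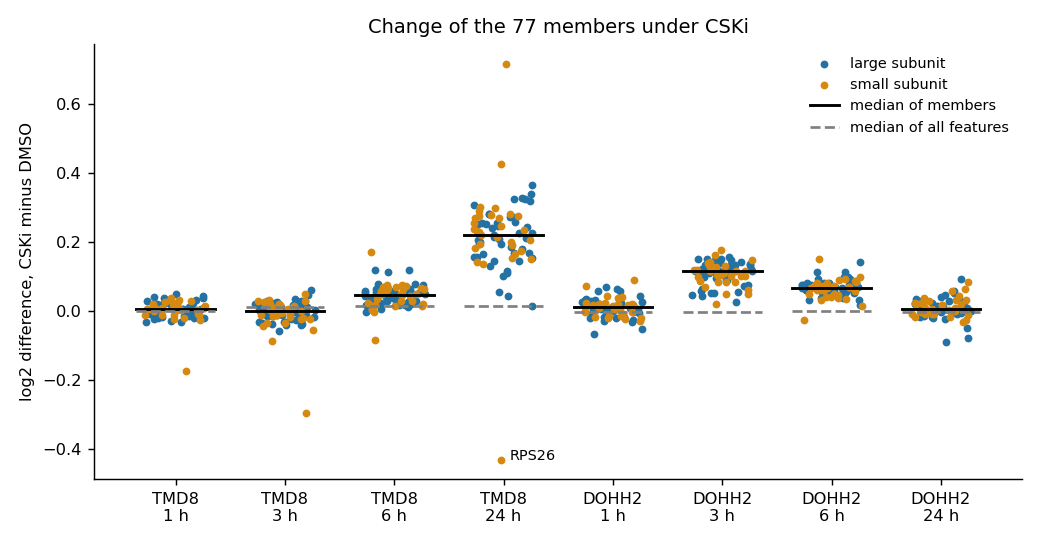
The log2 difference (CSKi minus DMSO) of the 77 members in each line and time, coloured by subunit, with the median of the members as a solid line and that of all features as a dashed line. The members' median is 0.22 in TMD8 at 24 h, 0.11 in DOHH2 at 3 h and 0.07 in DOHH2 at 6 h, and within 0.05 of 0 in the other 5 comparisons.

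In DOHH2 most members were called higher at 3 h, by small amounts. There, 59 of 77 were called higher and none lower, where 7.28% of all features were called higher, and 53 were with total mapped reads scaling (6.13% of all features). The median was 0.11, a 1.08-fold rise, against -0.0025 over all features, and all 77 values were positive. Both CSKi libraries were above both DMSO libraries in 73 members, where 26.6% of all features were. These calls depended on the libraries fitted: none of the 77 was called when the 24 h libraries of DOHH2 were fitted too, where RPS6 kept its difference of 0.18 with an SE of 0.06 in place of 0.03. Without DMSO replicate 1 of 3 h, 17 were called.

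RPS6 led at 3 h in DOHH2, with 16.92 and 16.91 with CSKi, against 16.76 and 16.71 with DMSO (0.18 ± 0.03, adjusted p = 1.3e-04). RPS3A, at the base of the small subunit platform, had 15.67 and 15.58 with CSKi, against 15.42 and 15.50 with DMSO (0.16 ± 0.04, adjusted p = 0.0023). Its groups did not overlap, though its duplicates differed by about as much as the gap between them. RPL21 had 15.33 and 15.34 with CSKi, against 15.16 and 15.20 with DMSO (0.16 ± 0.03, adjusted p = 4.1e-04), and RPL7, which lies beside the 5S RNA, had 15.74 and 15.73 with CSKi, against 15.57 and 15.60 with DMSO (0.15 ± 0.03, adjusted p = 3.7e-04). RPL5, RPL11, RPL22 and RPLP0 were among the called members with 0.15, 0.15, 0.13 and 0.11. RPS26 had 14.02 and 14.08 with CSKi, against 13.96 and 13.98 with DMSO, and did not pass (0.08 ± 0.03, adjusted p = 0.11). RPS28 and RPL28 had the smallest differences, 0.02 and 0.03.

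At 6 h in DOHH2, 14 members were called higher and none lower, where 6.96% of all features were called higher, and 14 were with total mapped reads scaling (6.62% of all features). The median was 0.07, and in 64 members both CSKi libraries were above both DMSO libraries, as in 26.6% of all features. RPL39, a small protein at the wall of the peptide exit tunnel, had 14.30 and 14.37 with CSKi, against 14.22 and 14.16 with DMSO (0.14 ± 0.03, adjusted p = 0.0018). RPL13A had 16.74 and 16.79 with CSKi, against 16.65 and 16.65 with DMSO (0.11 ± 0.03, adjusted p = 0.0028), and RPL13 and RPS2 differed by 0.11 ± 0.03 and 0.10 ± 0.03 (adjusted p = 0.018 and 0.016). RPS6, the leading member at 3 h, had 16.70 and 16.68 with CSKi, against 16.74 and 16.70 with DMSO, and its groups overlapped. The count was 0 with the 24 h libraries in the fit, 3 without CSKi replicate 2, 4 without DMSO replicate 2 and 22 without CSKi replicate 1.

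At 1 h in DOHH2 none of the members was called, where 2.05% of all features were in either direction, and 3 were higher at an unadjusted p under 0.05. At 24 h none was called and none had an unadjusted p under 0.05, where 0% of all features were called. The members took 12.7 and 14.2% of mapped reads in the libraries labelled CSKi, against 13.6 and 13.1% in those labelled DMSO. Without CSKi replicate 2 the members' median was -0.095, and without CSKi replicate 1 it was 0.11, in each case from 1 CSKi library.

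The lines' responses could be set against each other at 1, 3 and 6 h. The difference (TMD8 response minus DOHH2 response) was called in no member at 1 h or at 6 h, where 0.45% and 5.98% of all features were called in either direction, and no member had an unadjusted p under 0.05 at either time. At 3 h all 77 differences were negative, with a median of -0.11 against 0.0085 over all features. Of these, 7 were called lower, where 2.64% of all features were, and 1 was with total mapped reads scaling, where 1.98% were. RPS6 had -0.22 ± 0.06, RPL12, at the base of the stalk, had -0.17 ± 0.05, and RPS7 had -0.15 ± 0.04 (adjusted p = 0.034, 0.041 and 0.035). With total mapped reads scaling RPS6 kept its call (limma adjusted p = 0.049), while RPL12 and RPS7 lost theirs (adjusted p = 0.057 for each). Leaving out each of the 8 libraries in turn gave 0 to 4 calls. The 24 h responses of the lines were not compared, given the DOHH2 libraries.

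Of the 73 members called higher in TMD8 at 24 h, 57 were called higher in DOHH2 at 3 h, where 59 of all 77 were. Those 57 were 57 of the 59, where 73 of all 77 were called higher in TMD8 at 24 h, so each share lay near that of all members. The sizes of the 2 sets of differences had a correlation of 0.06 over the 77 members, which share their library's depth. All 14 members called at 6 h in DOHH2 were called higher in TMD8 at 24 h, as were 73 of all 77, and 13 of these 14 were called at 3 h in DOHH2, as were 59 of all 77.

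**Figure D4:**
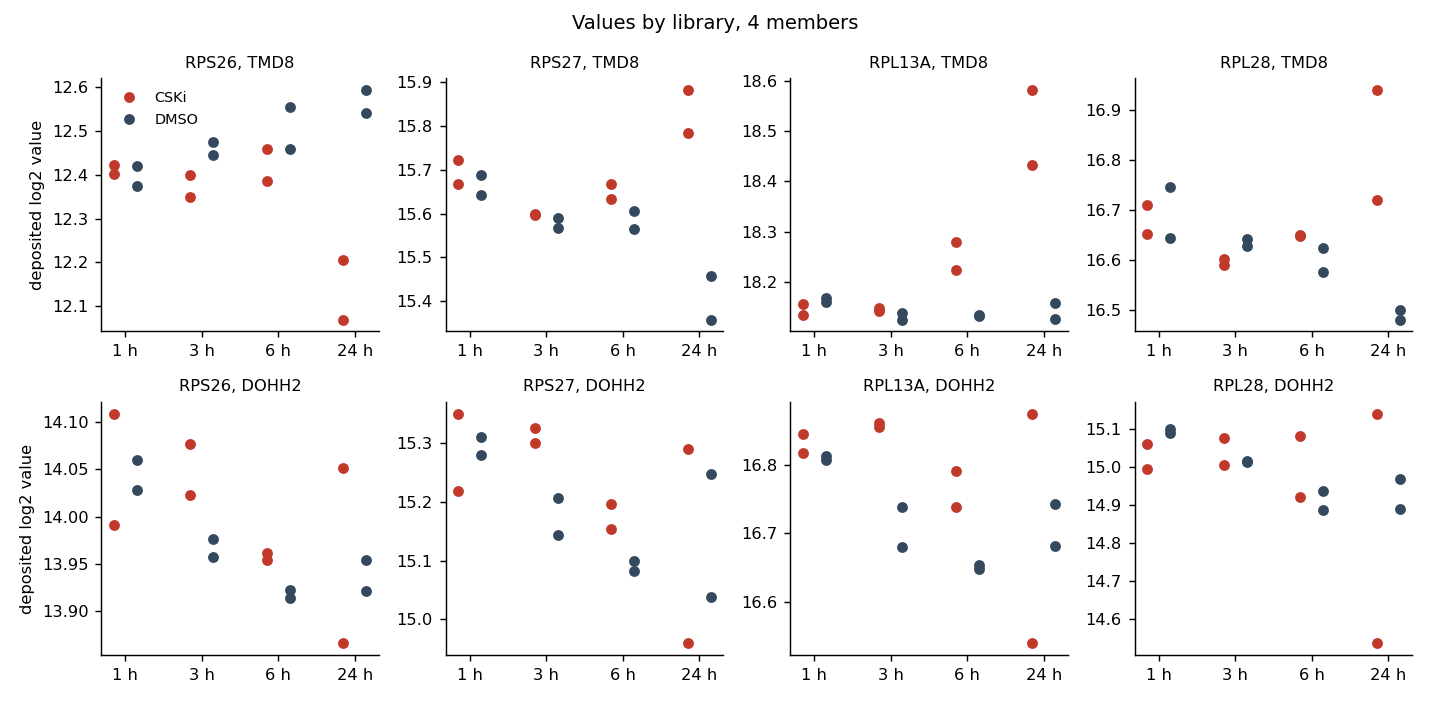
Deposited log2 values of RPS26, RPS27, RPL13A and RPL28 in each library by time (upper row TMD8, lower row DOHH2, CSKi left of DMSO, axes differ between panels). In TMD8 at 24 h the CSKi libraries are below the DMSO libraries for RPS26 (12.21 and 12.07 against 12.59 and 12.54) and above them for RPS27, RPL13A and RPL28.

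Members also differed between times within the DMSO libraries, where vehicle and time in culture cannot be told apart. These comparisons share the DMSO libraries of the treatment comparisons. In TMD8, DMSO of 24 h against DMSO of 1 h had 4 members higher and 41 lower, where 22.8% and 23.9% of all features were called, with a median of -0.09, and without DMSO replicate 2 of 24 h the calls were 26. RPS27 had 15.46 and 15.36 at 24 h, against 15.69 and 15.64 at 1 h (-0.26 ± 0.04, adjusted p = 1.9e-06), and RPL37 had 14.67 and 14.63 at 24 h, against 14.92 and 14.90 at 1 h (-0.26 ± 0.04, adjusted p = 5.1e-06). RPS26 had 12.59 and 12.54 at 24 h, against 12.42 and 12.38 at 1 h (0.17 ± 0.05, adjusted p = 0.0035), and RPL5 and RPS2 rose by 0.13 ± 0.03 and 0.09 ± 0.03. RPS26, RPS27 and RPL37 had -0.43, 0.43 and 0.32 for CSKi against DMSO at 24 h, against the same DMSO libraries of 24 h. The RPS26 values with CSKi at 24 h (12.21 and 12.07) were also below those of vehicle at 1 h, and the RPS27 values (15.88 and 15.78) above them. DMSO of 6 h against 1 h had 1 member higher (RPL5, 0.11) and 3 lower (RPL13, RPS21 and RPL18, from -0.12 to -0.11), where 11.2% and 12.4% of all features were called. With total mapped reads scaling it had 4 higher (RPL5 among them) and none lower, where 13.9% of all features were called higher. The 3 members called lower kept their sign there, with -0.09 for RPL13 and -0.08 for RPS21 and RPL18, and did not pass the test (adjusted p = 0.051, 0.074 and 0.080). No more than 1 call was made without any 1 of these 4 libraries.

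In DOHH2, DMSO of 6 h against 1 h had 72 members lower and none higher, where 23.4% of all features were called lower, and 57 with total mapped reads scaling, where 16.7% were. The median was -0.14 against -0.02 over all features. RPL13 had 15.78 and 15.77 at 6 h, against 15.997 and 16.021 at 1 h (-0.23 ± 0.03, adjusted p = 2.9e-06), and RPL27A and RPS21 fell by 0.21 and 0.20 on the log2 scale. With all 16 DOHH2 libraries in the fit, 13 members were called lower. As a mean of duplicates, the members took 13.93, 14.29 and 13.58% of mapped reads in the DOHH2 CSKi libraries of 1, 3 and 6 h, against 13.88, 13.40 and 13.03% in the DMSO libraries of these times.

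In vehicle, single members differed between the lines in both directions, from -1.52 (RPS26) to 1.64 (RPL28) on the log2 scale. Over the DMSO libraries of 1, 3 and 6 h (6 per line), 21 members were higher in TMD8 and 52 lower, where 43.8% and 45.6% of all features were called, with a median of -0.26 and an SD of 0.63 over the members. RPL28 had a lowest, median and highest value of 16.57, 16.64 and 16.75 in TMD8, against 14.88, 15.01 and 15.10 in DOHH2, which is 3.11-fold higher in TMD8 (1.64 ± 0.03, adjusted p = 5.4e-24). RPL13A and RPS15, whose tail reaches the decoding site, were 2.68-fold and 2.63-fold higher in TMD8. At the other end, RPS26 had 12.38, 12.45 and 12.55 in TMD8, against 13.91, 13.97 and 14.06 in DOHH2 (-1.52 ± 0.02, adjusted p = 5.7e-25), and RPL11, RPS7 and RPL39 had -1.36, -1.24 and -1.21. RPLP0 (0.01 ± 0.02, adjusted p = 0.59), RPL23A (0.03 ± 0.02) and RPL30 (-0.02 ± 0.02) did not pass the test, and RPS6 had 0.13 ± 0.02 with lines that overlapped. The small subunit had 13 of 31 members higher and 17 lower, and the large subunit 8 of 46 higher and 35 lower.

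The line differences are set beside those of other features on the same chromosome (RefSeq, GRCh38.p14), a grouping chosen after the values were seen and given with no test. Of the 12 members on chromosome 19, 10 were higher in TMD8 and 2, among them RPS28, were lower, with a median of 0.75. Of the 795 other features tested there, 63.0% were higher, 29.3% were lower, and the median was 0.53. The 4 members on the X chromosome, RPL10, RPS4X, RPL39 and RPL36A, were all lower in TMD8 with a median of -1.14, and 69.9% of the 375 other features of that chromosome were lower with a median of -0.63. On chromosome 3, 6 of 7 members were lower while 38.5% of the 636 other features were lower, and on chromosome 17, 5 of 6 members were lower while 40.2% of the 722 other features were. Under CSKi the 12 members of chromosome 19 had the median of 0.28 in TMD8 at 24 h, all of them called higher, and 37.1% of the other features there were higher. In DOHH2 at 3 h their median was 0.07 with 4 of 12 called, and 3.66% of the other features there were higher.

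**Figure D5:**
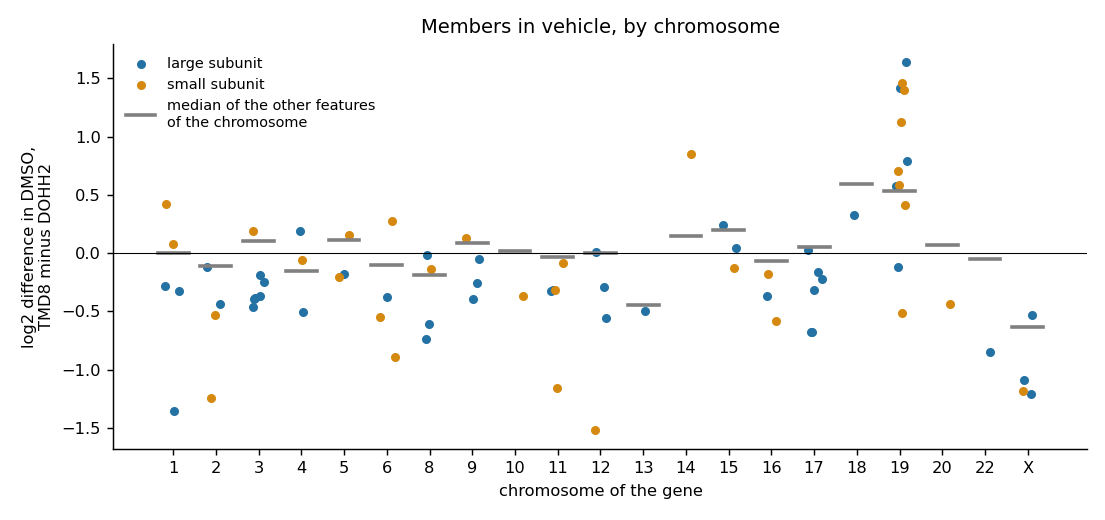
The log2 difference between the lines in DMSO (TMD8 minus DOHH2, 6 libraries each, y axis) of each member by the chromosome of its gene (x axis), coloured by subunit, with the median of the other features tested on that chromosome as a grey bar. Chromosome 19 holds 10 members above 0, up to 1.64, over a median of 0.53 of its other features, and the 4 members of the X chromosome lie from -1.21 to -0.53.

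Other genes of the ribosome and of its control did not all follow the members. For these genes and lists, DOHH2 results come only from the fit without its 24 h libraries. With those libraries fitted too, no member was called in DOHH2 at 3 or 6 h. Of 20 translation factor and related genes known as TOP mRNAs, 11 were higher and 3 lower in TMD8 at 24 h, where 27.9% and 26.2% of all features were. With total mapped reads scaling 9 were higher and 5 lower, where 24.3% and 30.2% of all features were. EEF1A1, the elongation factor that brings transfer RNA to the ribosome, had 18.59 and 18.58 with CSKi, against 18.30 and 18.28 with DMSO (0.29 ± 0.03, adjusted p = 1.1e-09), and EEF2, which moves the ribosome along, had 15.84 and 15.68 with CSKi, against 15.53 and 15.46 with DMSO (0.26 ± 0.04). EIF3F and EIF4B, both of initiation, rose by 0.29 and 0.28, and the poly(A) binding protein PABPC1 by 0.09 ± 0.03 (adjusted p = 0.015, and 0.14 with total mapped reads scaling). The 3 lower genes were NPM1 (-0.47 ± 0.03), VIM (-0.34 ± 0.04) and HNRNPA1 (-0.21 ± 0.03). In DOHH2 at 3 h, 13 of 19 such genes were higher (7.28% of all features) and none lower, with EEF1A1 at 0.13 ± 0.02 and EEF2 at 0.11 ± 0.03, and at 6 h 7 were higher (6.96% of all features) and none lower.

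Of 8 tested ribosomal protein genes with other forms of symbol, 2 were higher and 3 lower in TMD8 at 24 h, where 27.9% and 26.2% of all features were, so these counts do not set the list apart. FAU, which encodes a ribosomal protein fused to a ubiquitin-like part, had 0.09 ± 0.04 (adjusted p = 0.032) and was not called with total mapped reads scaling (adjusted p = 0.21). The paralogues RPL22L1, RPL7L1 and RPL36AL fell, by 0.69, 0.22 and 0.22 on the log2 scale, while RPL22 and RPL36A rose by 0.15 and 0.26. With total mapped reads scaling 1 of the 8 was higher and 4 lower, where 24.3% and 30.2% of all features were.

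Many genes that build the ribosome were lower in TMD8 at 3, 6 and 24 h and in DOHH2 at 6 h. Of 27 ribosome assembly and nucleolar genes, all 27 were lower in TMD8 at 24 h under both scalings, where 26.2% and 30.2% of all features were. The median of the 27 was -0.48, and among them were LYAR (-0.80 ± 0.10), the nucleolar phosphoprotein gene NOLC1 (-0.70 ± 0.04) and nucleolin, NCL (-0.57 ± 0.03). At 3 h in TMD8, when no member was called, 13 of these 27 were lower (3.26% of all features). At 6 h, when 3 members were called higher, 24 of the 27 were lower in TMD8 (6.98% of all features) and 20 of 27 in DOHH2 (6.67% of all features), with medians of -0.28 and -0.17 and none higher in either line. In DOHH2 at 3 h, when 59 members were higher, 3 of the 27 were lower (7.27% of all features). Of 75 mitochondrial ribosomal protein genes, 48 were lower and none higher in TMD8 at 24 h (26.2% of all features were lower), or 59 lower with total mapped reads scaling (30.2% of all features). In TMD8 at 6 h 3 were lower and 1 higher, and in DOHH2 at 3 h 2 were lower and 1 higher, shares that were no larger than those of all features. Of 12 genes of mTORC1 and LARP1 control, 9 were lower and 2 higher in TMD8 at 24 h, where 26.2% of all features were lower and 27.9% higher. LARP1 itself fell by 0.31 ± 0.04 on the log2 scale and EIF4EBP1, a translational repressor under mTORC1, by 0.74 ± 0.09, while TSC1 and TSC2, whose proteins hold mTORC1 back, rose by 0.47 ± 0.05 and 0.46 ± 0.05. MYC fell by 0.77 ± 0.06 in TMD8 at 24 h, by 0.69 ± 0.06 in TMD8 at 6 h and by 0.34 ± 0.04 in DOHH2 at 6 h, and had -0.03 ± 0.04 in DOHH2 at 3 h (adjusted p = 0.66). CSK, the target of the inhibitor, had 0.01 ± 0.03 in TMD8 at 24 h (adjusted p = 0.87), and it fell by 0.16 ± 0.04 in DOHH2 at 3 h and by 0.21 ± 0.04 at 6 h on the log2 scale. LYN had 0.08 ± 0.04 in TMD8 at 24 h (adjusted p = 0.072) and fell by 0.13 ± 0.04 in DOHH2 at 3 h.

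The host genes of small nucleolar RNAs that are also TOP transcripts had 1 of 7 higher, GAS5 (0.24 ± 0.04), and 2 lower, SNHG1 and SNHG12, in TMD8 at 24 h, where 27.9% and 26.2% of all features were. In DOHH2 at 3 h, where 7.28% of all features were higher, 4 of these 7 were (SNHG7, SNHG6, GAS5 and SNHG5, from 0.12 to 0.14) and none lower.

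Members with and without a pyrimidine run near the annotated start had overlapping changes. A run outside the stretch searched counted as none, so a member without a run here may still have a tract at another start. The window of RPL17, counted as without a run, holds a run of C and T bases before that stretch. In TMD8 at 24 h the 55 members with a run had a median of 0.21 and a range from -0.43 to 0.43, and the 7 matched members without one had a median of 0.24 and a range from 0.18 to 0.33. The correlation of run length with the change over the 62 matched members was -0.08 in TMD8 at 24 h and -0.16 in DOHH2 at 3 h. The correlation of mean level with the change over all 77 was 0.33 in TMD8 at 24 h and 0.17 in DOHH2 at 3 h. These points share their libraries and are no independent replicates.

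Reads of members can be shared with processed pseudogenes, since 76 of the 77 members have at least 1 named in GENCODE v29. The table holds 27 such pseudogene rows, for 16 members. In vehicle, RPL13AP5 stood at 1.04% of RPL13A in TMD8 and 0.80% in DOHH2. The rows with the largest share of their parent gene in DOHH2 were RPSAP58, at 0.50% of RPSA in TMD8 and 2.79% in DOHH2, and RPL23AP53, at 0.09% of RPL23A in TMD8 and 2.22% in DOHH2.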

How the data were processed

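RNA-seq of 32 libraries was analysed, 2 for each line, treatment and time. Per the labels' protocols, RNA was extracted with RNeasy and sequenced from stranded TruSeq mRNA libraries in paired reads of 75 bases. Per the submitters' processing notes, reads were counted with HTSeq on hg19, while its version, strand setting and the aligner were not given in the sources used here. Each deposited value has another unit than a count: it is the authors' log2 of reads times a factor of each library, with 0 where a feature had no reads and a first row of total mapped reads. Undoing the scaling gave whole reads, within 0.1, for 99.97% of values of up to 300 reads, so reads per member and RPM were computed from it.

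The samples were grouped by their labels. The labels call the duplicates bio replicates but do not say that they came from separate cultures. The p-values measure the spread between these samples, and how far it is technical is not known. The design fixed for these values named log2 as the unit, and the tests were kept. Differences were tested with limma 3.58.1 in R 4.3.3 (group means model, empirical Bayes with a trend, two-sided) on the 12000 features of highest mean, with Benjamini-Hochberg adjustment and a call at an adjusted p under 0.05. TMD8 was fitted on its 16 libraries, DOHH2 at 1, 3 and 6 h without its 4 libraries of 24 h, and the lines together on 28 libraries. A second scaling used total mapped reads. The fits were tested on simulated data. Figures used Python 3.11.15, pandas 2.3.3 and matplotlib 3.10.9.

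The members and all gene lists were chosen with earlier results of these data known. Named members are the 4 of highest and lowest mean, up to 4 called members in each direction by size of change, with groups that do not overlap, for a treatment comparison and the comparison of lines, up to 3 otherwise, and always RPL5, RPL11, RPS6, RPLP0, RPS26 and RPL22. Of the lists, up to 3 genes of smallest p were named, and always EEF1A1, EEF2, PABPC1, LARP1 and FAU, with CSK, LYN and MYC. Other members (RPL18, RPL13, RPL37, RPL15, RPL14, RPL7, RPL24, RPL35, RPL28 and RPS28 at DOHH2 3 h, and those on chromosomes 19 and X) and further list genes were named after their values were seen. Some genes that this rule names are not reported here, though they are in the counts and medians. Samples with the same replicate number did not deviate together, so numbers were not used as pairs. Alternatives were other scalings, no filter on features, other sets of libraries, the replicate number as a block and each library left out, where the lone library of a group was assumed to vary like the other groups of the fit. Intervals for counting error are not given, since a member had at least 2158 reads in every library.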

Additional observations from a re-analysis of the deposited data

Results flagged for a closer look

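The response of the ribosomal protein genes to CSKi differed between times in TMD8 by a test of the difference itself (limma, adjusted p under 0.05): the response at 24 h minus that at 6 h was called in 60 of 77 members, 59 of them higher and RPS26 lower, where 15.4% of all features were called higher and 14.1% lower. With total mapped reads scaling it was called in 47, 46 of them higher (12.9% of all features) and 1 lower (17.6% of all features). Both treatments moved between these times: the members' mean share of mapped reads went from 13.3 to 14.1% with CSKi and from 12.9 to 12.3% with DMSO. The responses of TMD8 and DOHH2 at 3 h differed in 7 of 77 members by the same kind of test, all 7 with the TMD8 response below the DOHH2 response (2.64% of all features), and in 1 with total mapped reads scaling (1.98% of all features).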

How the results depend on the processing

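Called members numbered 74 in TMD8 at 24 h and 65 to 74 over all alternatives, and RPS26 stayed lower in each. Of 44 results for named members under 479 alternatives, 380 kept their side of the threshold, 99 lost the call and 0 changed direction. Other counts moved by over 1.5 times, and the cause was not tested. TMD8 at 6 h had 3 calls, 1 with median-of-ratios scaling, 0 with no filter and 0 with all 32 libraries fitted. With no filter DOHH2 had 19 calls at 3 h and 1 at 6 h, the line difference at 3 h had 1 and TMD8 DMSO of 6 h against 1 h had 0. With all 16 DOHH2 libraries fitted, DOHH2 had 0 calls at 3 h, 0 at 6 h and 13 for DMSO of 6 h against 1 h, and with all 32 the line difference at 3 h had 0. With total mapped reads scaling that difference had 1. Leaving out each library in turn gave 0 to 1 calls in TMD8 at 3 h, 0 to 1 in TMD8 at 6 h, 17 to 51 in DOHH2 at 3 h, 3 to 22 in DOHH2 at 6 h, 0 to 7 in DOHH2 at 24 h, 0 to 4 for the line difference at 3 h, 0 to 1 for TMD8 DMSO of 6 h against 1 h and 26 to 36 for TMD8 DMSO of 24 h against 1 h. With the replicate number as a replicate block, TMD8 DMSO of 6 h against 1 h had 7 calls in place of 4 and no other count moved by over 1.5 times. The correlation of same-numbered deviations was between -0.02 and 0.071 except in DOHH2 at 24 h, where it was -0.377. A crossed block there, chosen after seeing the data, gave 0 calls, as did a fit of only these 4 libraries. With 2 libraries a group, changes of a few percent lie near the limit of the test.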
